A study of Homo sapiens with 4 samples.

Results

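The genes described here are 56 components of the human DNA replication machinery, chosen by symbol from what their proteins are known to do and sorted into 14 complexes or functional groups. The choice was made with earlier results of these data known. The study had reported DNA replication among the pathways enriched in the genes that differed after knockdown. All 56 were found among the 64252 genes of the count table, and all 56 passed the filter on low counts that left 18779 genes for testing. They were measured by RNA sequencing in SK-N-BE(2), an established human neuroblastoma cell line. The 2 sh-Scb libraries came from cells carrying a scrambled short hairpin RNA (shRNA), and the 2 sh-SAPCD2 libraries from cells carrying an shRNA against SAPCD2. Both are stable lines made by infection with lentivirus, and no other agent or allele separates the groups in the labels. The study designed 2 hairpins against SAPCD2, and the sample labels do not say which of them these libraries carry. They also do not say that the libraries of a group came from separate cultures, so p-values here measure the spread between these libraries, which may be technical.

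DNA is copied once in each cell cycle. In G1 the origin recognition complex, CDC6 and CDT1 load the ring-shaped MCM2-7 helicase onto DNA at origins, and at the start of S phase the kinases CDK and DDK, with a set of firing factors, bring CDC45 and the GINS complex to it, which makes the active helicase. Behind the helicase, polymerase alpha-primase lays down RNA-DNA primers, polymerase epsilon copies the leading strand and polymerase delta the lagging strand, both held by the sliding clamp PCNA, while replication protein A coats single-stranded DNA and FEN1, DNA2 and LIG1 trim and join Okazaki fragments. Many of these genes are transcribed at the G1/S boundary under E2F factors, and the fraction of cells in S phase therefore bears on their level in a bulk sample: fewer cycling cells and less RNA per cell cannot be told apart in these libraries.

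The targeted gene was lower in both knockdown libraries. SAPCD2 was at 83.4 and 82.1 CPM (read counts scaled to the size of the library) in sh-Scb 1 and sh-Scb 2, and at 35.3 and 52.4 CPM in sh-SAPCD2 1 and sh-SAPCD2 2, which is 42.7% and 63.3% of the control mean, with a log2 fold change of -0.91 ± 0.19 (SE) and an adjusted p of 0.0206 in the edgeR quasi-likelihood test. Its transcript has a GC content of 66.5%. In the same test with a correction for GC content and length it came to -1.29 (adjusted p = 2.2e-05). The libraries held between 25347900 and 31850997 counts, so that 3 counts correspond to 0.0954 to 0.118 CPM, and the members had between 201 and 11060 counts in a library. Sympathoadrenal genes that mark neuroblastoma (PHOX2A, HAND2, GATA2, GATA3, ISL1, TH, DBH and MYCN) were expressed in all 4 libraries. Of these markers ISL1 (log2 fold change -0.52) and DBH (-1.35) were lower and MYCN (1.02) was higher in the knockdown, and the others named here missed the test. Of the markers of mesenchymal, blood and endothelial cells, PRRX1, CD3E, LYZ and HBB had no count in any library, COL1A2, PECAM1, CDH5 and VWF stayed under 1 CPM, and THY1, CD44, PDGFRB, TWIST1, SNAI2, COL1A1 and COL3A1 were detected in all 4 libraries. PTPRC, a marker of leukocytes, was at 9.69 and 8.93 CPM in the controls and at 12.3 and 10.6 CPM in the knockdown, higher in both knockdown libraries, and missed the test (log2 fold change 0.30, adjusted p = 0.24). FN1 (-0.59) was lower and THY1 (0.37) and VWF were higher. The part of these markers in the results was not tested. The 2 sh-SAPCD2 libraries differed from each other with the GC content of the gene, and the values that show this are given after the complexes.

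SAPCD2-knockdown SK-N-BE(2) cells had less RNA of most of the replication machinery. Of the 56 members, 46 (82.1%) were lower at an adjusted p under 0.05 in the edgeR test, against 12.5% of all genes tested. None was higher, against 12.4% of all genes tested, and POLE3 was the one member with a log2 fold change above 0. The edgeR test at an unadjusted p under 0.05 called 0 of the 56 higher, and DESeq2 at an adjusted p under 0.05 called 0 higher. With the fold threshold of the study (a log2 fold change under -1), 28 members were differentially expressed genes (DEGs), against 5.15% of all genes tested. The median log2 fold change of the members was -1.0, which leaves 50.2% of the control level, with quartiles of -1.21 and -0.60, beside a median of 0.02 over all genes tested. In 50 members both sh-SAPCD2 libraries lay below both sh-Scb libraries, an order that 33.4% of all genes tested showed. The members were chosen with earlier results of these data known, so these shares describe the list and are not an independent test.

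**Figure D1:**
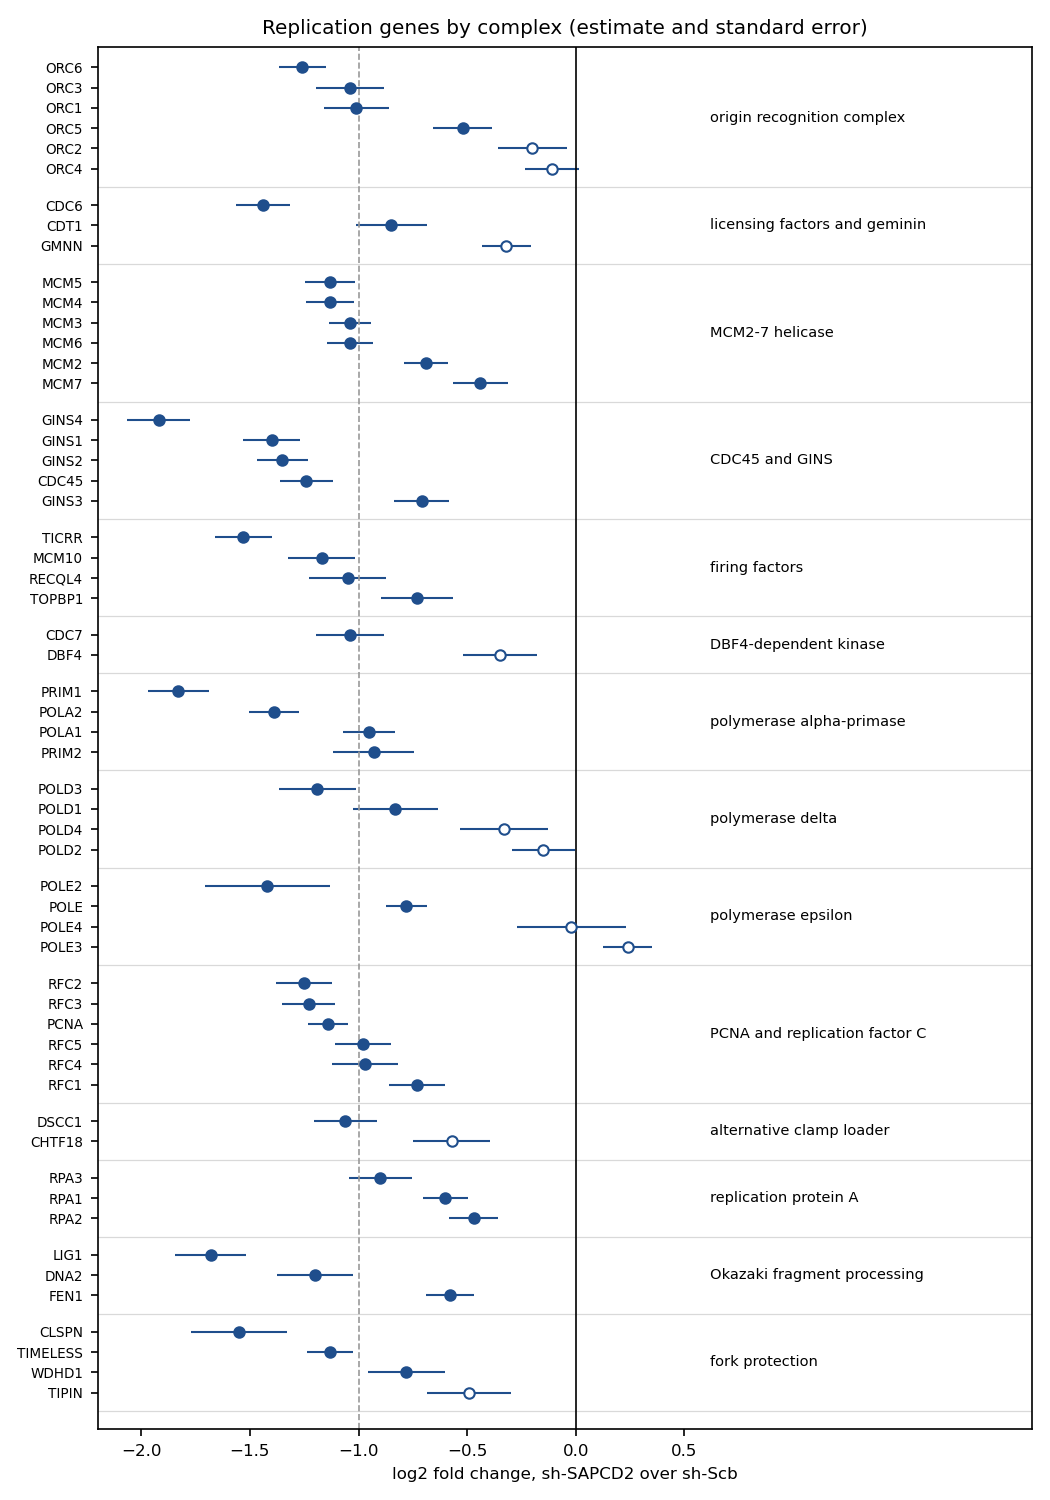
The log2 fold change (sh-SAPCD2 over sh-Scb) of each of the 56 members on the horizontal axis, with bars for its standard error (2 libraries a group), grouped by complex. Filled points passed the edgeR test at an adjusted p under 0.05, open points did not, and the dashed line marks a log2 fold change of -1. GINS4 sits lowest at -1.92 and POLE3 is the one point to the right of 0, at 0.24.

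The fall was not even across the machinery. By median log2 fold change the complexes ran from CDC45 and GINS (-1.35), Okazaki fragment processing (-1.20), polymerase alpha-primase (-1.17) and the firing factors (-1.11), through PCNA with replication factor C (-1.06), MCM2-7 (-1.04), the fork protection group (-0.95), licensing (-0.85), the alternative clamp loader (-0.82) and the origin recognition complex (-0.77), to DDK (-0.70), replication protein A (-0.60), polymerase delta (-0.58) and polymerase epsilon (-0.40). These are descriptions of lists of 2 to 6 genes, and the order of neighbouring complexes was not tested. In MCM2-7, CDC45 with GINS, the firing factors, polymerase alpha-primase, PCNA with replication factor C, replication protein A and Okazaki fragment processing, every member passed the test. The 10 members that missed it were ORC2, ORC4, GMNN, DBF4, POLD2, POLD4, POLE3, POLE4, CHTF18 and TIPIN.

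**Figure D2:**
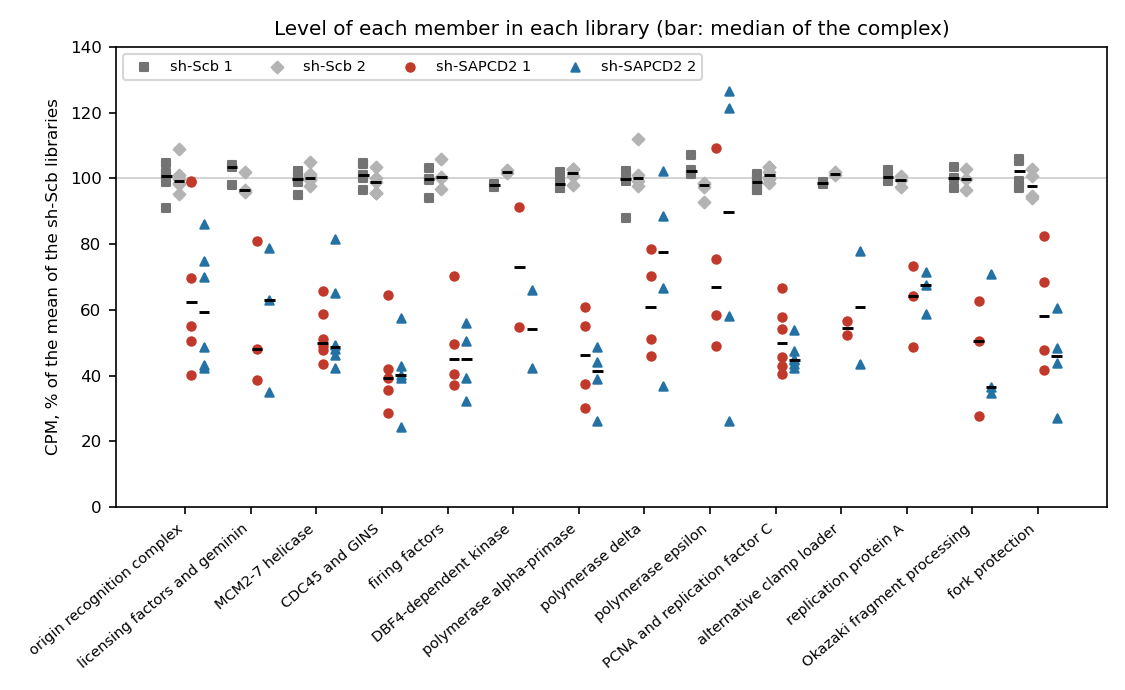
Level of each member in each library as a percentage of the mean of the sh-Scb libraries (vertical axis, from 0), by complex along the horizontal axis; squares and diamonds are the sh-Scb libraries, circles and triangles the sh-SAPCD2 libraries, and the black bars are the median of the complex. Over all 56 members the median was 51.8% in sh-SAPCD2 1 and 48.3% in sh-SAPCD2 2, and the polymerase epsilon genes spread most widely, from 26.3% for POLE2 to 127% for POLE3 in sh-SAPCD2 2.

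Promoters of replication genes are known for sites of the E2F factors. RefSeq promoters on GRCh38.p14, running from 250 bases before to 50 bases after the annotated start, were at hand for 47 of the 56 members. None was at hand for MCM4, MCM5, GINS4, RECQL4, POLD3, DSCC1, DNA2, RPA2 and RPA3. All of these but RPA2 and RPA3 were DEGs, so the comparisons by promoter word leave them out. The search looked for 4 exact 8-base E2F words on either strand (TTTCCCGC, TTTGGCGC, TTTCGCGC and TTTGCCGC). At least 1 was present in 20 of the 47 (42.6%), compared with 703 of 15843 promoters of protein-coding genes (4.44%) and 5.23% of those whose gene was tested here. Matches are shown for 13 of the 20, chosen to cover helicase loading, the helicase, the polymerases, the clamp, the ligase and fork protection, together with POLE4, which had a match and missed the test. Those of ORC3, MCM7, GINS3, TOPBP1, POLA1, POLE and RFC3 are not printed. The printed genes are mostly DEGs, all but CDT1, MCM2 and POLE4, while of those not printed only ORC3 and RFC3 are. Each is printed 5′ to 3′ on the strand of its gene with the E2F words in capitals, and words such as GCGGGAAA or GCGCCAAA are E2F words read from the opposite strand. In MCM2 and MCM6 words from both strands overlap.
CDC6, chr17:40287844-40287903, plus strand: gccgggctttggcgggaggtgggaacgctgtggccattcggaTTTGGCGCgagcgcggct
CDT1, chr16:88803728-88803787, plus strand: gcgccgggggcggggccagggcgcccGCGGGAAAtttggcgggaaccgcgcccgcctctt
MCM2, chr3:127598376-127598435, plus strand: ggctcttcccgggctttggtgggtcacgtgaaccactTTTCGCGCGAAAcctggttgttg
MCM3, chr6:52284883-52284942, minus strand: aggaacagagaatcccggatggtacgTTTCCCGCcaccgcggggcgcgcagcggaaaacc
MCM6, chr2:135876506-135876621, minus strand: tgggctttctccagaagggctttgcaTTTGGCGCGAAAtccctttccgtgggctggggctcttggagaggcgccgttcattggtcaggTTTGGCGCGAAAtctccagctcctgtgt
GINS1, chr20:25407638-25407697, plus strand: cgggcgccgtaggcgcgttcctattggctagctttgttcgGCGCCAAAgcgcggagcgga
GINS2, chr16:85688952-85689011, minus strand: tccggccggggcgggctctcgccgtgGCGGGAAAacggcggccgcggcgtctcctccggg
POLA2, chr11:65261883-65261942, plus strand: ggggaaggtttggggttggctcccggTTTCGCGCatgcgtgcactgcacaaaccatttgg
POLE2, chr14:49688190-49688249, minus strand: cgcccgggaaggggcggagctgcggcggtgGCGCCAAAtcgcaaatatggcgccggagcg
POLE4, chr2:74958586-74958645, plus strand: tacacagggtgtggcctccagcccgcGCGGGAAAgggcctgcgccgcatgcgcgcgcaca
PCNA, chr20:5126648-5126707, minus strand: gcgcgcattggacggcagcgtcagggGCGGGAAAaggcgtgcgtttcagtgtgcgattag
LIG1, chr19:48170425-48170484, minus strand: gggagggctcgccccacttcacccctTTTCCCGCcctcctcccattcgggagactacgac
CLSPN, chr1:35769954-35770013, minus strand: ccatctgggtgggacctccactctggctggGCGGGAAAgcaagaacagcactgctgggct
The match fell within 60 bases of the start in CDC6, CDT1, MCM2, GINS1, GINS2, POLA2, POLE2, POLE4, PCNA and CLSPN. MCM3 held 1 word at position -174, which is the one printed, and another at -4, and MCM6 held its 4 matches in 2 overlapping pairs at positions -152, -148, -90 and -86. A match describes these letters and not bound protein.

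**Figure D3:**
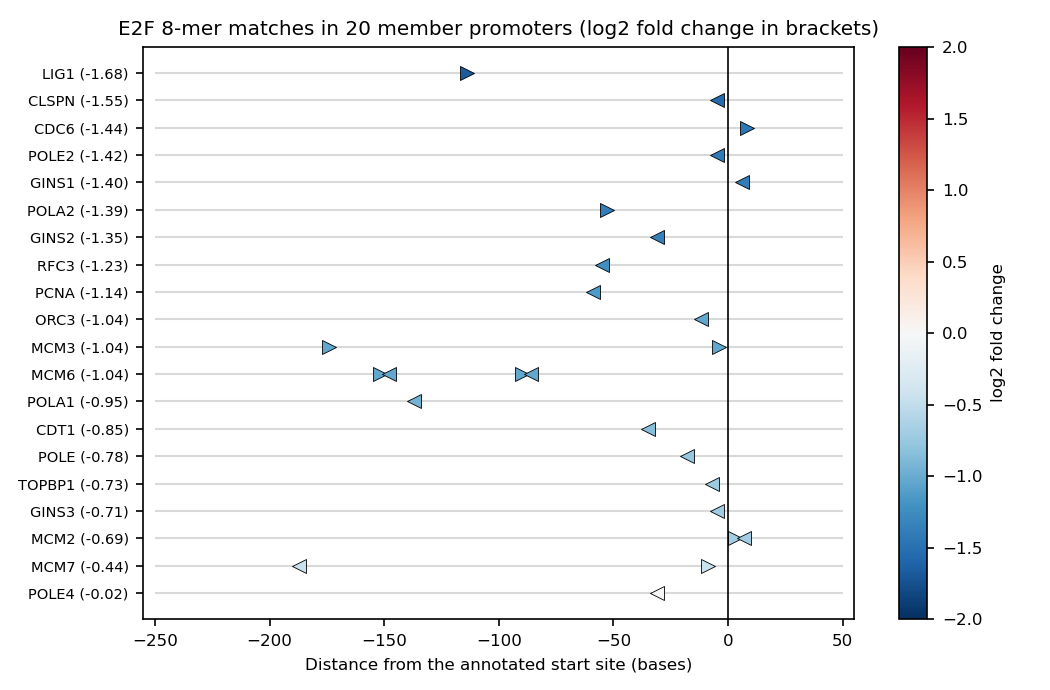
Position of each E2F word (horizontal axis, bases from the annotated start site, negative values upstream) in the 20 member promoters that held at least 1, ordered from the lowest log2 fold change at the top, LIG1 at -1.68, to POLE4 at -0.02 at the bottom. Triangles pointing right are words on the strand of the gene, those pointing left words on the opposite strand, and the colour gives the log2 fold change. All but POLE4 passed the test.

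Members with an E2F word, 20 in number, fell to a median of -1.04 on the log2 scale and included 12 DEGs. For the 27 without one the median was -0.78, with 9 DEGs. Members without these words that fell include PRIM1, ORC6, TICRR and CDC45. Only exact words were counted, so a promoter without one may still hold a close variant. The promoters of CDC45 and MCM10 hold TTTGGCGG, which differs from the word TTTGGCGC in its last base. The cell cycle homology region words TTTGAA and TTCGAA, which mark many late cell cycle promoters, were found in 2 of the 47 promoters (DBF4 and MCM6, 4.26%), against 13.5% of coding promoters. CCAAT boxes, a motif added after the data were seen, stood in 27 of the 47 (57.4%), against 36.4%. The median was -1.04 with CCAAT and -0.80 without. The 56 members lie on 20 chromosomes.

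At origins, the initiator genes split. The origin recognition complex (ORC) marks origins, ORC1 being the subunit whose level rises and falls with the cell cycle in human cells and ORC6 the smallest and loosely bound one. ORC6 (ENSG00000091651) was at 104 and 107 CPM in the sh-Scb libraries and at 42.5 and 45.7 CPM in the sh-SAPCD2 libraries, the lowest fold change of the complex at -1.26 ± 0.11 (adjusted p = 0.00263). ORC3 (-1.04 ± 0.16), ORC1 (-1.01 ± 0.15) and ORC5 (-0.52 ± 0.14) also fell. ORC4 was at 53.5 and 51.8 CPM in the controls and at 52.0 and 45.4 CPM in the knockdown, a log2 fold change of -0.11 ± 0.12 (adjusted p = 0.541). ORC2 was at 52.9 and 51.5 CPM in the controls and at 51.8 and 39.1 CPM in the knockdown (-0.20 ± 0.16, adjusted p = 0.394). For both of these core subunits sh-SAPCD2 1 lay among the controls and the groups overlapped. In fits without 1 library, here and below, the lone library of a group is taken to vary like the other group. Calls gained or lost in such fits depend on that spread as well as on the gene. ORC2 passed at -0.42 (adjusted p = 0.00854) when sh-SAPCD2 1 was left out, and the call for ORC5 was lost when either control library was left out (adjusted p = 0.396 and 0.232).

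Among the licensing factors, the loader CDC6 had a lower fold change than CDT1 and than geminin, the inhibitor of CDT1. CDC6 was at 82.4 and 75.8 CPM in the controls and at 30.7 and 27.6 CPM in the knockdown (-1.44 ± 0.12, adjusted p = 0.00263). Geminin (GMNN), which binds CDT1 and blocks reloading, was at 62.1 and 57.9 CPM in the controls and at 48.6 and 47.4 CPM in the knockdown, so that the groups did not overlap, but it missed the test at -0.32 ± 0.11 (adjusted p = 0.0848). CDT1 fell by 0.85 ± 0.16 on the log2 scale, with 48.0% of the control mean left in sh-SAPCD2 1 and 63.1% in sh-SAPCD2 2, a call lost without sh-Scb 2 (adjusted p = 0.0522). Within a library, which needs no scaling between libraries, there were 1.33 and 1.31 CDC6 reads for each GMNN read in the controls and 0.630 and 0.582 in the knockdown. The log2 fold change of GMNN was -0.35 without sh-SAPCD2 1 and -0.30 without sh-SAPCD2 2. GMNN passed the edgeR test with all 4 libraries when GC content and length were corrected for (-0.23, adjusted p = 0.0435). It missed the test when a block for the replicate number was added to that correction.

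All 6 subunits of the MCM2-7 helicase, the hexameric motor that opens the double helix, fell. MCM4 was at 280.5 and 287 CPM in the controls and at 139 and 120.2 CPM in the knockdown (-1.13 ± 0.11, adjusted p = 0.00321), with MCM5 at the same fold change (-1.13 ± 0.12). MCM3 and MCM6 each came to -1.04, MCM2 to -0.69 ± 0.10. MCM7 had the smallest fall of the helicase, from 399.9 and 396 CPM in the controls to 262 and 324 CPM in the knockdown (-0.44 ± 0.13, adjusted p = 0.0489). Both knockdown libraries lay below both controls for all 6 subunits. MCM7 overlaps AP4M1 and carries the microRNA genes MIR106B, MIR25 and MIR93 within it, and whether the counting used strand is not given in the sources used here. Its call was lost when either control library was left out (adjusted p = 0.324 without sh-Scb 1 and 0.309 without sh-Scb 2) and with no filter on low counts (0.122), and that of MCM2 was lost without either control library (0.0787 and 0.0742).

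CDC45 and the 4 GINS subunits, which turn the loaded MCM ring into the active helicase, had the lowest median of the 14 groups with all 4 libraries. Without sh-SAPCD2 1 the median was -1.32, above that of Okazaki fragment processing at -1.46. GINS4 (ENSG00000147536), the lowest of all 56 members, was at 52.4 and 56.2 CPM in the controls and at 15.5 and 13.1 CPM in the knockdown, a log2 fold change of -1.92 ± 0.14 (adjusted p = 0.00203), or 3.79-fold lower. GINS1, GINS2 and CDC45 fell by 1.4, 1.35 and 1.24 on the log2 scale. GINS3 fell less, from 48.1 and 47.1 CPM to 30.7 and 27.4 CPM (-0.71 ± 0.13, adjusted p = 0.0123), and its call was lost without sh-Scb 1 (0.114) or without sh-Scb 2 (0.0939). The groups were apart for each of the 5 genes, and the knockdown libraries were close to each other. The ratio of GINS4 to GINS3 reads was 1.09 and 1.19 in the controls and 0.506 and 0.479 in the knockdown. The 4 proteins form a complex with 1 copy of each.

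All 4 firing factors fell. TICRR (also treslin), which together with TOPBP1 carries the CDK signal to the helicase, was at 67.1 and 63.0 CPM in the controls and at 24.1 and 21.0 CPM in the knockdown (-1.53 ± 0.13, adjusted p = 0.00263). TOPBP1 was at 170.2 and 172 CPM in the controls and at 120.0 and 86.4 CPM in the knockdown (-0.73 ± 0.17, adjusted p = 0.0251), the smallest fall of the group, and it was lost without sh-Scb 1 (0.0569) or sh-Scb 2 (0.0632). MCM10, which helps the active helicase to move off, came to -1.17 ± 0.15, and RECQL4 to -1.05 ± 0.18. Of the kinase DDK, the catalytic subunit CDC7 fell from 67.0 and 70.5 CPM to 37.7 and 29.0 CPM (-1.04 ± 0.16, adjusted p = 0.00770), while its activating subunit DBF4 was at 68.6 and 70.8 CPM in the controls and at 63.6 and 46.0 CPM in the knockdown (-0.35 ± 0.17, adjusted p = 0.184). DBF4 was below the controls in both knockdown libraries, slightly in sh-SAPCD2 1 and more in sh-SAPCD2 2, and it passed at -0.60 (adjusted p = 0.00177) when sh-SAPCD2 1 was left out.

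Of the 3 replicative polymerases, polymerase alpha-primase was lower in every subunit, whereas in polymerases delta and epsilon 2 accessory subunits each missed the test. The catalytic primase subunit PRIM1 (ENSG00000198056), on hg38 at chr12:56730438-56752374 on the minus strand, was at 47.3 and 49.98 CPM in the controls and at 14.6 and 12.7 CPM in the knockdown, a log2 fold change of -1.83 ± 0.14 (adjusted p = 0.00207). Its partner PRIM2 was at 28.6 and 27.6 CPM in the controls and at 17.1 and 12.4 CPM in the knockdown (-0.93 ± 0.19, adjusted p = 0.0176). The groups were apart for both. POLA2 fell by 1.39 ± 0.11 and the catalytic POLA1 by 0.95 ± 0.12 on the log2 scale. PRIM1 overlaps NACA and HSD17B6 in the annotation.

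In polymerase delta, POLD3 fell from 62.3 and 61.3 CPM to 31.6 and 22.7 CPM (-1.19 ± 0.18, adjusted p = 0.00781), and the catalytic subunit POLD1 fell by 0.83 ± 0.20 (adjusted p = 0.0288). The second subunit POLD2, which links the catalytic subunit to POLD3, was at 116 and 118 CPM in the controls and at 91.8 and 119.7 CPM in the knockdown (-0.15 ± 0.15, adjusted p = 0.496). The small subunit POLD4 was at 12.1 and 15.4 CPM in the controls and at 9.67 and 12.2 CPM in the knockdown (-0.33 ± 0.20, adjusted p = 0.274). For POLD2 the knockdown libraries lay on either side of the controls, and for POLD4 the groups overlapped. POLD2 was lower at an adjusted p of 0.00508 with the correction for GC content and length, and it reached 0.03 when sh-SAPCD2 1 was left out and -0.35 (adjusted p = 0.00372) when sh-SAPCD2 2 was. The call for POLD1 was lost without sh-Scb 1 (0.0656).

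In polymerase epsilon, POLE2 was at 24.9 and 23.7 CPM in the controls and at 11.9 and 6.39 CPM in the knockdown (-1.42 ± 0.29, adjusted p = 0.0182), and the catalytic subunit POLE fell by 0.78 ± 0.10 (adjusted p = 0.00493) with 58.3% and 58.2% of the control mean left. POLE3 (ENSG00000148229; hg38 chr9:113407235-113410675, minus strand), a histone-fold subunit that also serves in chromatin remodelling, was at 119 and 115 CPM in the controls and at 128 and 148 CPM in the knockdown. Both knockdown libraries lay above both controls, and the log2 fold change of 0.24 ± 0.11 missed the test (adjusted p = 0.174). POLE3 was higher in the test with a correction for GC content and length (0.32, adjusted p = 0.0202) and when sh-SAPCD2 1 was left out (0.34, adjusted p = 0.00282). Its histone-fold partner POLE4 was at 13.3 and 11.6 CPM in the controls and at 9.39 and 15.1 CPM in the knockdown, with the knockdown libraries on either side of the controls (-0.02 ± 0.25, adjusted p = 0.965).

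The sliding clamp and the 5 subunits of its loader all fell. PCNA was at 271 and 270.5 CPM in the controls and at 123 and 122 CPM in the knockdown (-1.14 ± 0.09). Of the loader genes, RFC2 fell furthest, from 43.4 and 46.5 CPM to 18.2 and 19.6 CPM (-1.25 ± 0.13, adjusted p = 0.00339), and RFC1, the large subunit that contacts the clamp, least, from 142 and 144 CPM to 95.2 and 77.1 CPM (-0.73 ± 0.13, adjusted p = 0.0124). For each gene both knockdown libraries lay below the controls. RFC3, RFC5 and RFC4 came to -1.23, -0.98 and -0.97. The call for RFC1 was lost without sh-Scb 1 (0.0568) or sh-Scb 2 (0.0639). In the alternative loader that serves sister chromatid cohesion, DSCC1 fell from 35.1 and 36.4 CPM to 18.7 and 15.6 CPM (-1.06 ± 0.15, adjusted p = 0.00634). CHTF18 was at 40.2 and 41.1 CPM in the controls and at 23.0 and 31.7 CPM in the knockdown (-0.57 ± 0.18, adjusted p = 0.0629). CHTF18 was below the controls in both knockdown libraries, and it passed in the DESeq2 test (adjusted p = 0.025) and when either sh-SAPCD2 library was left out (0.0215 and 0.00244). With the correction for GC content and length CHTF18, with a GC content of 66.9%, came to -0.96 (adjusted p = 0.000173).

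Replication protein A, which holds unwound DNA open, fell in its 3 subunits but in none past the fold threshold. RPA3 was at 40.6 and 41.2 CPM in the controls and at 19.9 and 24.0 CPM in the knockdown (-0.90 ± 0.14, adjusted p = 0.00964), and RPA2 was at 60.8 and 57.6 CPM in the controls and at 43.4 and 42.4 CPM in the knockdown (-0.47 ± 0.11, adjusted p = 0.0302). RPA1 came to -0.60 ± 0.10. The knockdown libraries lay below the controls for each. The calls for RPA1 and RPA2 were lost without sh-Scb 1 (adjusted p = 0.161 and 0.395) or sh-Scb 2 (0.149 and 0.288).

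Among the genes of Okazaki fragment processing, LIG1, the DNA ligase that seals the fragments, was at 34.8 and 32.5 CPM in the controls and at 9.35 and 11.7 CPM in the knockdown (-1.68 ± 0.16, adjusted p = 0.00321). The flap nuclease FEN1 was at 114 and 113 CPM in the controls and at 71.1 and 80.5 CPM in the knockdown (-0.58 ± 0.11, adjusted p = 0.0153), a call lost without sh-Scb 1 (0.172) or sh-Scb 2 (0.166). The groups were apart for both genes, and the nuclease and helicase DNA2 lay between them at -1.20 ± 0.18. In the fork protection group, CLSPN (claspin), a mediator of the checkpoint kinase CHK1, was at 50.8 and 45.7 CPM in the controls and at 20.1 and 13.0 CPM in the knockdown (-1.55 ± 0.22, adjusted p = 0.00692). TIMELESS and WDHD1 fell by 1.13 ± 0.11 and 0.78 ± 0.18 on the log2 scale. TIPIN, the obligate partner of TIMELESS, was at 19.3 and 17.2 CPM in the controls and at 15.03 and 11.1 CPM in the knockdown (-0.49 ± 0.19, adjusted p = 0.117), lower in both knockdown libraries but less so in sh-SAPCD2 1. TIPIN passed at -0.73 (adjusted p = 0.0122) when sh-SAPCD2 1 was left out, and WDHD1 was lost without sh-Scb 2 (0.0701).

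Because the subunits of a complex did not fall equally, their shares of its RNA differed between the groups. For each library the reads of a subunit were divided by the length of its canonical transcript and given as a share of the sum over its complex. This quantity does not depend on the scaling between libraries. It can still carry the difference between libraries that follows GC content, given below, where subunits differ in GC content. Shares were not corrected for it. With 2 libraries a group the smallest exact permutation p (two-sided) is 0.33, so shares are given without a test. POLE3 made up 52.2% and 53.2% of the polymerase epsilon reads per kb in the controls and 67.1% and 68.9% in the knockdown. POLD2 held 67.6% and 67.2% of polymerase delta in the controls and 76.8% ± 2.5 (SD, n = 2) in the knockdown. In both enzymes the knockdown shares lay above both control shares. In MCM2-7 the share of MCM7 was 33.3% and 33.0% in the controls and 39.4% and 44.5% in the knockdown, and those of MCM3, MCM4, MCM5 and MCM6 were lower in both knockdown libraries than in the controls. In polymerase alpha-primase PRIM1 went the other way, from 41.4% and 42.4% to 30.6% and 30.3%, and in the origin recognition complex ORC6 from 48.9% and 49.5% to 35.6% and 41.3%. In CDC45 with GINS, the share of GINS3 was 19.7% and 20.04% in the controls and 29.8% and 27.2% in the knockdown, while CDC45 stayed between 27.9% and 29.5% in all 4 libraries. In DDK, DBF4 was 47.4% and 46.9% of the pair in the controls and 59.7% and 58.3% in the knockdown. When reads were not divided by length, DBF4 was 50.6% and 50.1% in the controls and 62.8% and 61.3% in the knockdown. Its order above or below CDC7 in the controls therefore depends on the division by length, while its larger share in the knockdown does not.

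**Figure D4:**
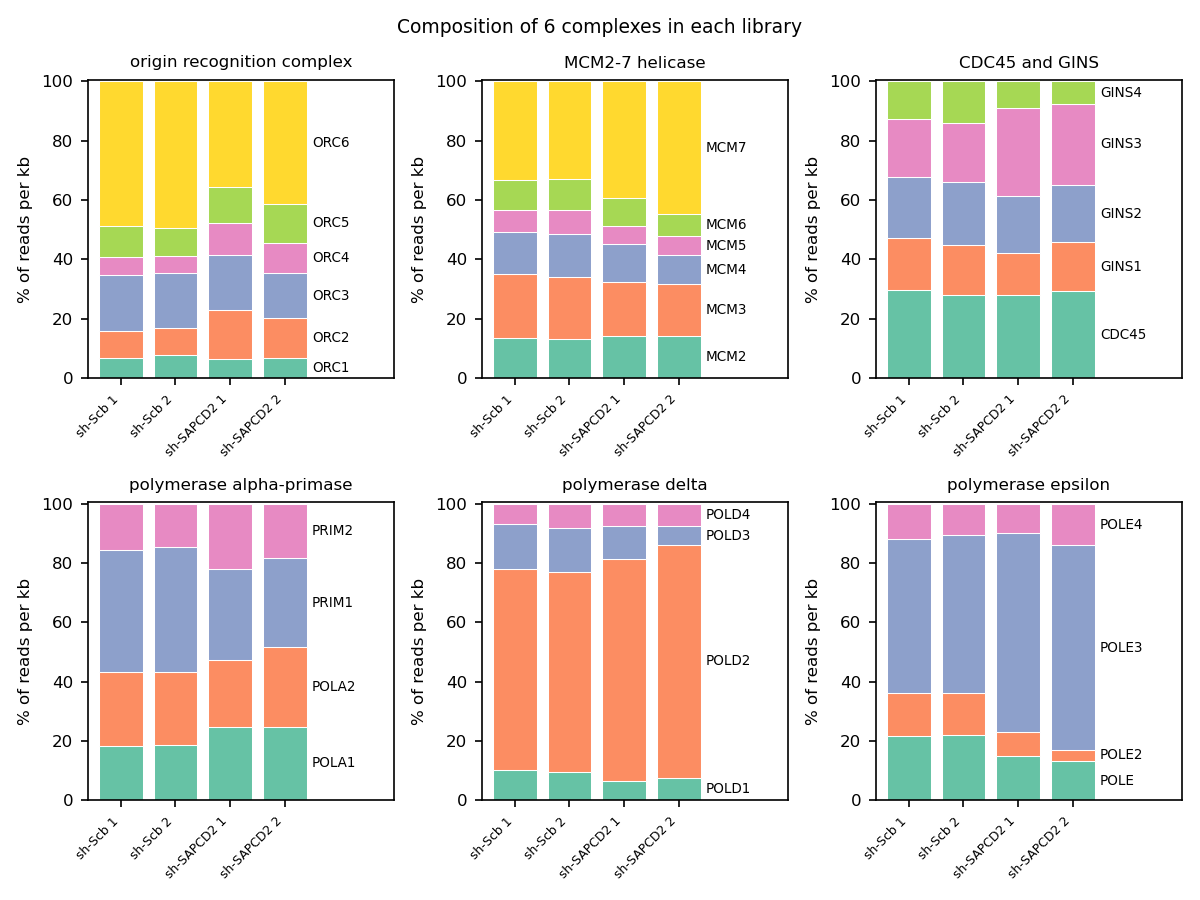
Share of each subunit in the reads per kb of its complex (vertical axis, percent, stacked to 100) for 6 complexes, 1 bar for each library. In polymerase delta, polymerase epsilon and MCM2-7 the blocks of POLD2, POLE3 and MCM7 are larger in both sh-SAPCD2 libraries than in both sh-Scb libraries, and in the origin recognition complex and polymerase alpha-primase those of ORC6 and PRIM1 are smaller.

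Per length of transcript, the levels of the members ranged widely. PCNA had the highest level at 212 ± 0.24 CPM per kb (SD, n = 2) in the controls and 96.0 ± 0.89 in the knockdown. MCM7 followed at 161 ± 1.0 CPM per kb in the controls and 119 ± 18 in the knockdown, where it stood above PCNA by a margin close to its own spread. MCM3 was at 103 ± 3.2 and 49.97 ± 1.2 CPM per kb, POLD2 at 72.7 ± 0.92 and 65.7 ± 12. At the low end of the control order stood CLSPN at 5.67 ± 0.43 CPM per kb, which came to 1.95 ± 0.59 in the knockdown.

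The 2 sh-SAPCD2 libraries did not agree equally well for all members, and the difference between them followed the GC content of the transcript. Across the 56 members the log2 ratio of sh-SAPCD2 2 to sh-SAPCD2 1 correlated with GC content at a Pearson r of 0.752 (Spearman rho 0.749), against 0.0953 for the ratio of the 2 controls. Over 17467 tested genes with an annotation the values were 0.435 and -0.0216. Genes are not independent, and the points share the 2 libraries, so no p is given. The 17 members with under 42% GC had a median ratio of -0.38, the 20 from 42 to 50% one of -0.15, the 15 from 50 to 60% one of 0.10, and the 4 at 60% or more one of 0.47. AT-rich members such as POLE2 (-0.89) and DBF4 (-0.47) were lower in sh-SAPCD2 2, and GC-rich ones such as POLD1 (0.53), RECQL4 (0.47) and CHTF18 (0.46) lower in sh-SAPCD2 1. Single members departed from this order. POLE4, at 47.3% GC, had the largest ratio (0.68), and 2 of the 17 members under 42% GC had a ratio above 0. The median log2 fold change of the members in these 4 classes was -0.93, -1.01, -1.04 and -0.84. With each library corrected for GC content and length, 49 members were lower, GMNN, POLD2 and CHTF18 among them, and 1, POLE3, was higher. The part of GC content in the values of single members was otherwise not tested.

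**Figure D5:**
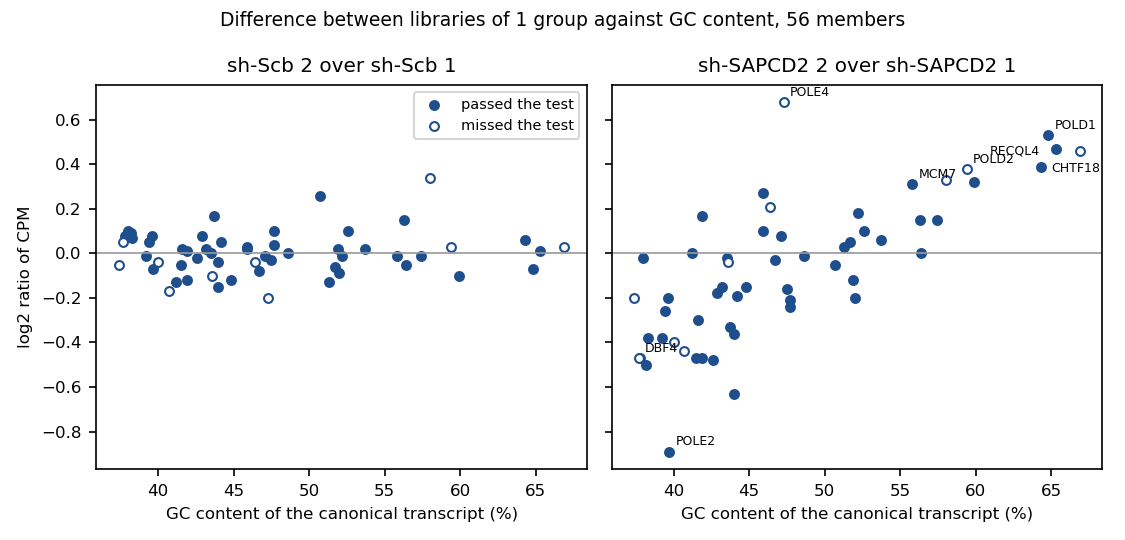
Log2 ratio of CPM between the 2 libraries of a group (vertical axis) against the GC content of the canonical transcript (horizontal axis, percent) for the 56 members, controls on the left and knockdown on the right. Filled points passed the test and open points did not. The control points lie flat around 0, while the knockdown points rise from -0.89 for POLE2 to 0.53 for POLD1, with POLE4 above the others at 0.68.

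The annotation places 33 of the members over another gene, 25 of them over one on the opposite strand. The median log2 fold change was -0.95 for these 33 and -1.04 for the 23 that overlap none. A hairpin can also lower transcripts that match its seed, so the guide arms of both hairpins of the study are given 5′ to 3′, with the seed (bases 2 to 8) in capitals.
Hairpin 1: aTGAAGGTggaatccagaggt
Hairpin 2: aTCATCTCcaaaccctgcagc
The site for the seed of hairpin 1 (ACCTTCA) was present in the annotated 3′ UTR of 5 of the 56 members (8.93%), against 12.5% of 13583 coding genes tested, and that for hairpin 2 (GAGATGA) in 8 (14.3%), against 14.8%. The members with a site for hairpin 1 (ORC2, GINS1, POLD3, POLD4 and FEN1) showed a median of -0.58, beside -1.01 in the 51 that lack one. For hairpin 2 the medians were -0.76 with a site and -1.0 without.

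Another 24 genes of replication, which are not core members of the 14 groups, were also mostly lower. Of these, 17 were lower, 1 was higher and 6 missed the test, with a median log2 fold change of -0.64 and 6 DEGs, all lower. Of all genes tested, 12.5% were lower, 12.4% higher and 5.15% lower DEGs. DTL, which targets CDT1 for destruction in S phase, was at 84.2 and 79.9 CPM in the controls and at 28.3 and 23.2 CPM in the knockdown (-1.67 ± 0.14, adjusted p = 0.00261). The histone chaperone gene ASF1B was at 60.3 and 54.7 CPM against 15.9 and 20.7 CPM (-1.65 ± 0.17), PCLAF, whose protein binds PCNA, at 109 and 107 CPM against 35.7 and 35.9 CPM (-1.59 ± 0.11), and TOP2A at 806 and 796 CPM against 340.2 and 266 CPM (-1.4 ± 0.14). DBF4B, an alternative activator of CDC7, was at 28.1 and 28.0 CPM in the controls and at 9.71 and 12.8 CPM in the knockdown (-1.32 ± 0.18). In these 5 genes, those with the smallest p of the list, every knockdown library lay below the controls. RPAIN, which carries replication protein A into the nucleus, was the one gene called higher, at 40.8 and 38.5 CPM in the controls and 57.1 and 64.3 CPM in the knockdown (0.61 ± 0.12, adjusted p = 0.0177). Its call was lost without sh-Scb 1 (0.151), without sh-Scb 2 (0.230) and with no filter on low counts (0.0507). Of the 24, 9 were lower when either control library was left out.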

How the data were processed

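RNA from 2 sh-Scb and 2 sh-SAPCD2 libraries was sequenced as 150 bp paired-end reads, which the authors aligned to hg38 with HISAT2 2.2.0 and quantified with StringTie 2.1.2. The deposited values are whole-number read counts per gene, not normalized. The annotation release, the conversion of coverage to counts, strandedness and the treatment of reads with several matches are not given in the sources used here. Genes were kept by filterByExpr (minimum count 10, minimum total 15), scaled by TMM and compared with the edgeR 4.0.16 quasi-likelihood test in R 4.3.3, without covariates. Adjusted p-values (Benjamini-Hochberg) cover all 18779 genes tested, called at 0.05. SE is the log2 fold change divided by the square root of F. CPM is scaled to the total count times the TMM factor. The common biological coefficient of variation was 15.4%. DESeq2 1.42.0, other scalings and filters, a replicate block, a loess correction (span 0.3) for GC content and length, and leaving out each library were alternatives. The fits were tested on simulated data. Gene positions, lengths and GC content come from GENCODE 44 (Ensembl canonical transcripts), promoters from RefSeq and hairpins from the study's methods. Python 3.11.15 was used for summaries. In each complex the members with the lowest and highest log2 fold change, any called higher and any that missed the test are given by library. Of 24 other replication genes, the 5 with the smallest p and any called higher are named. Members and lists were chosen with earlier results of these data known, and CCAAT boxes, read ratios, GC content between libraries, hairpin seeds and neighbouring genes were added after the data were seen. The CPM of 3 counts was taken as the floor and does not measure counting error. Some cell type markers are not reported here.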

Additional observations from a re-analysis of the deposited data

How the results depend on the processing

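Of the 46 members called lower, 37 kept the call under each alternative that used all 4 libraries, and 34 kept it without each library in turn. With DESeq2 47 members were lower, with a replicate block 47, with the correction for GC content and length 49 and with no filter on low counts 37, which lost ORC5, CDT1, MCM7, TOPBP1, PRIM2, POLD1, POLE2, RPA2 and WDHD1. Without 1 library the count ran from 35 (without sh-Scb replicate 2) to 51 (without sh-SAPCD2 replicate 1), and that of DEGs from 24 to 32. Members called higher numbered 1 (POLE3) with the correction for GC content and length, alone or with the replicate block, and 0 to 1 without 1 library. Of the other 24 replication genes, 11 were lower and 0 higher with no filter, 2 were higher with the correction for GC content and length, alone or with the block, and without 1 library 9 to 19 were lower and 0 to 3 higher. That correction moved medians of complexes, to -0.64 (-0.65 with the block) for the origin recognition complex, -1.15 for licensing, -0.99 for MCM2-7, -1.27 for CDC45 with GINS, -1.22 for the firing factors, -0.76 for polymerase delta, -0.96 for PCNA with replication factor C, -0.94 for the alternative clamp loader and -0.53 for replication protein A, the last 8 being equal with and without the block. Without 1 library the medians ran from -0.78 to -0.69 for the origin recognition complex, -1.06 to -0.67 for licensing, -1.04 to -1.0 for MCM2-7, -0.93 to -0.50 for DDK, -1.28 to -1.14 for polymerase alpha-primase, -0.73 to -0.39 for polymerase delta, -0.59 to -0.26 for polymerase epsilon, -1.16 to -1.01 for PCNA with replication factor C, -0.88 to -0.78 for the alternative clamp loader, -1.46 to -0.98 for Okazaki fragment processing and -1.13 to -0.81 for the fork protection group. The sign turned in POLE4, at 0.02 with the correction and between -0.41 and 0.28 without 1 library, and in POLD2, which lay between -0.35 and 0.03 without 1 library. In the fits that leave out 1 library, the lone library is taken to vary like the other group, and the cause of these shifts was not tested. The deviations of libraries with the same number from their group means correlated at -0.0188 over the genes tested. With 2 libraries a group this cannot show whether they were paired, and the labels do not say. The replicate block in the edgeR test changed 1 member, CHTF18, which passed (adjusted p = 0.0171). Shares of subunits kept their sign in 54 of 56 members when reads were not divided by length, and 26 moved by more than the spread between libraries. With 2 libraries a group, small changes stay beyond the reach of the test.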

Other observations

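Several members share a bidirectional promoter region with a neighbour, and these pairs, looked up after the data were seen, give a further view of the loci. A gene on the opposite strand with a start within 1000 bp was annotated for 23 members, and 22 of these neighbours passed the filter on low counts. In the edgeR test 7 were lower, 1 was higher and 14 missed it, with a median log2 fold change of -0.32. Of all genes tested, 12.5% were lower and 12.4% higher. CDS2, which starts 253 bp from PCNA and serves phospholipid synthesis, was at 92.6 and 93.5 CPM in the sh-Scb libraries and at 54.999 and 51.8 CPM in the sh-SAPCD2 libraries (-0.80 ± 0.11, adjusted p = 0.00581). PRKDC, the catalytic subunit of the DNA-dependent protein kinase, lies 7 bp from MCM4 and came to -0.60 ± 0.13 (adjusted p = 0.0209), about as far down as PRPF38A next to ORC1 (-0.60 ± 0.12). LIPT2 next to POLD3 was at 2.42 and 2.87 CPM in the controls and at 0.552 and 0.763 CPM in the knockdown (-1.99 ± 0.33, adjusted p = 0.0105).

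Some pairs did not move together. MBD5, 593 bp from ORC4, was lower (-0.81 ± 0.21, adjusted p = 0.0355) while ORC4 missed the test. MAP2K1, which encodes the kinase MEK1 and starts 91 bp from TIPIN, was at 40.02 and 40.4 CPM in the controls and at 55.99 and 65.99 CPM in the knockdown (0.60 ± 0.13, adjusted p = 0.0218). VPS35 next to ORC6 was at -0.21 ± 0.10 and ABHD12 next to GINS1 at 0.27 ± 0.15, and both missed the test. The differences between the members of a pair were not tested.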
